A study of Mus musculus with 6 samples.

Results

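The genes of MHC class I peptide loading were followed in Th9 cells, a helper T cell subset that makes IL-9, from WT mice and from mice labelled Irf1-/-, a genotype named for the gene of the transcription factor IRF1. They were listed by name for their role in peptide transport, trimming and loading, with the class I transactivator Nlrc5, and all 10 were found among the 41388 genes of the count table through their Ensembl identifiers. RNA came from 3 WT cultures and 3 Irf1-/- cultures of T cells on a C57BL/6 background, from mice 8 to 12 weeks old, activated through CD3 and CD28 with IL-2, TGF-β, IL-4 and an antibody to mouse IFN-γ. Every culture, WT and Irf1-/- alike, also received rat IFN-γ at 5 ng per ml and was harvested on day 2. The WT mice had been purchased and the Irf1-/- mice bred by the authors, and which part of Irf1 is missing was not given in the sources used here. Libraries without IFN-γ were not analysed here, so the values compare the genotypes and do not measure induction by IFN-γ. In bulk RNA, fewer expressing cells and less RNA per cell cannot be told apart.

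The reads on genes ranged from 5639788 to 13348230 per library, with replicate 3 of each genotype the largest. Normalized counts, reads divided by a size factor for each library, are given throughout. Cd4 had 3900 to 4030 of them in WT and 3554 to 3839 in Irf1-/- libraries. The CD8 T cell markers Cd8a and Cd8b1 summed to 32.4 to 41.2 in WT and 20.3 to 30.7 in Irf1-/- libraries, which did not overlap, with Cd8a at or below 4.99 and Cd8b1 at or below 38.1. The sum over 4 Th9 markers was 12283 to 15789 in WT and 18105 to 20599 in Irf1-/- libraries. Over 6 T cell markers it was 13376 to 13550 and 12841 to 13225, so that Cd4 and both sums did not overlap between the genotypes. Single T cell markers went both ways. Cd3e and Trac, like Cd4, were lower in every Irf1-/- library than in any WT library, and Cd3g overlapped. Cd3d was higher, at 1298 to 1390 in Irf1-/- against 1186 to 1266 in WT libraries. Lck was also higher, at 4487 to 4661 against 4226 to 4474. Over 8 myeloid markers the summed level was 54.9 to 178 in WT and 44.7 to 1017 in Irf1-/- libraries, highest in Irf1-/- replicate 2, where Lyz2 (559) and Cd14 (334) made up most of it and Itgam was at 45.8. Tyrobp was at or below 8.32 and Fcer1g at or below 4.16 in every library. Over 5 B cell markers the sum was 18.7 to 26.4 in WT and 21.7 to 37.4 in Irf1-/- libraries with Pax5 at 0, and over 4 NK cell markers it was 0 to 5.53 and 6.93 to 9.59, which did not overlap, all of it from Klrd1 and Klrk1, with Ncr1 and Klrb1c at 0. The Y-linked transcript Ddx3y had 849 and 939 normalized counts in WT replicates 1 and 2 and at most 4.16 in the other 4 libraries, while Xist was high in those 4. The part of these differences in the results below was not tested. Where a member lost its call without Irf1-/- replicate 2 or in the 4 libraries with Xist alone, the value is given with its result. Irf1 itself had 2968, 2907 and 2660 normalized counts in WT cells and 1780, 1729 and 1476 in Irf1-/- cells. Its reads were thus reduced to 58.4% of the WT mean and not absent in the libraries labelled Irf1-/- (change of log2 -0.78, SE 0.0756, limma adjusted p = 7.32e-05).

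MHC class I molecules show peptides from the cytosol to CD8 T cells on the surface of nearly all nucleated cells. Proteasomes cut proteins into peptides, the transporter formed by the products of Tap1 and Tap2 carries them into the endoplasmic reticulum (ER), and ERAP1 trims their amino ends there. In the peptide loading complex, tapasin (Tapbp) bridges the transporter and a class I heavy chain bound to β2-microglobulin (B2m), together with the lectin chaperone calreticulin (Calr) and the oxidoreductase ERp57 (Pdia3). The membrane-bound lectin calnexin (Canx) helps fold new heavy chains, and TAPBPR (Tapbpl), a relative of tapasin, edits peptides outside the complex. IFN-γ raises much of this machinery, in part through IRF1 and NLRC5, the latter of which works with factors bound to class I promoters.

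Stretches near the start of 6 of these genes are shown because the members differed in size of change, and these letters let their promoters be set side by side. They come from RefSeq on GRCm38.p6, in which 7 of the 10 members were matched, Tap2, Tapbpl and Nlrc5 being the others. The windows searched ran from 250 bases before to 50 bases after the start, on both strands. Capitals mark the core of the interferon-stimulated response element (GAAANNGAAA) in Erap1 and B2m, the CCAAT box in B2m, Tap1 and Tapbp, and the ER stress element (CCAAT, 9 bases of any kind, CCACG, which holds a CCAAT box) in Calr and Canx. A match is a description of letters and was not tested as a binding site.
Erap1 (chr13:74639753-74639862, + strand): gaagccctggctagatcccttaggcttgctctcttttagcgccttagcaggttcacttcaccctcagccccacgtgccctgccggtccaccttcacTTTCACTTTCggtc
B2m (chr2:122147537-122147686, + strand): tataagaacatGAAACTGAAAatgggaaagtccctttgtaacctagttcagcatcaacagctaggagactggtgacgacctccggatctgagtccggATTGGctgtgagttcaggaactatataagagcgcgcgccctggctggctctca
Tap1 (chr17:34187331-34187555, + strand): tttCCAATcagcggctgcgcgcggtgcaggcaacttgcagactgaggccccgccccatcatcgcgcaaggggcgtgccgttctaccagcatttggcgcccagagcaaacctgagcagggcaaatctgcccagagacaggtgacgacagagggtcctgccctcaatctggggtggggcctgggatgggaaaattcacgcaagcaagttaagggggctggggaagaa
Tapbp (chr17:33919298-33919477, + strand): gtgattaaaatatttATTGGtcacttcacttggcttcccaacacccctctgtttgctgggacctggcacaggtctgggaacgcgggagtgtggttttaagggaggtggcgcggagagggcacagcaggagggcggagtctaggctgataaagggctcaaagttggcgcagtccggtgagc
Calr (chr8:84847007-84847106, - strand): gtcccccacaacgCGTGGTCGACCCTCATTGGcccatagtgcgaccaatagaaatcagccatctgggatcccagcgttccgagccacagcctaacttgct
Canx (chr11:50325734-50325833, - strand): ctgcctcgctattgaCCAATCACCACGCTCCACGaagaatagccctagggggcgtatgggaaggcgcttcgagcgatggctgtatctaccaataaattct
The response element core lay across the start of Erap1, beginning 4 bases before it, and began 139 bases before the start of B2m. It was in 3.44% of all 32851 promoter windows, and not in those of Tap1, Tapbp, Calr, Canx or Pdia3. These absences hold for this spelling alone. The paper spells the element more loosely, as AANNGAAA, which was not searched here, and the stretch shown for Calr holds such letters (aatagaaa). The ER stress element began 162 bases before the start of Calr and 145 before that of Canx, and was in 0.119% of all windows. The CCAAT box was in 37.4% of all windows, and the capitals do not mark every match to it. In lower case above are those 131 bases before the start of Calr and 72 before that of Canx. Outside the stretches shown, it also began 248 bases before the start of Tapbp, 178 before that of Canx, and 79 and 29 before that of Pdia3. The window of Erap1 held none. The stretch shown for Tap1 is the whole of the 225 bases between its RefSeq start and that of Psmb9, which runs the other way. The gene positions given below are from GENCODE, in which Psmb9 starts inside Tap1 and the outermost start of Tapbp, 33915899, lies before the stretch shown for it.

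**Figure D1:**
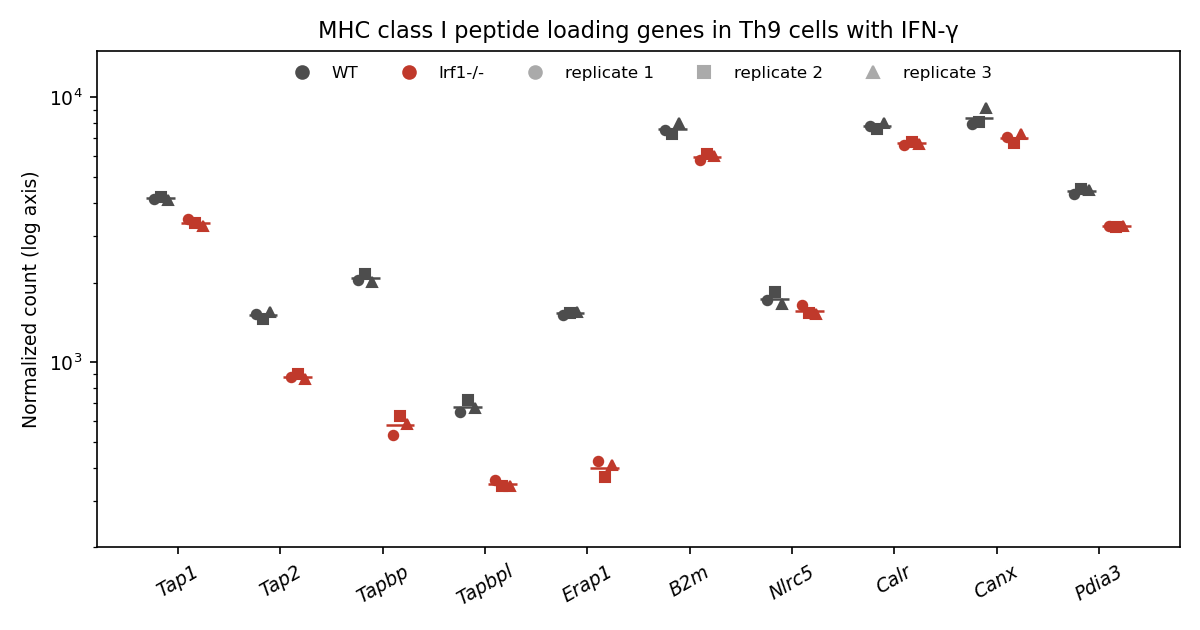
Normalized counts (log axis) of the 10 genes in 3 WT (grey) and 3 Irf1-/- (red) libraries, with symbols for replicates and lines for group means. Erap1 and Tapbp show the widest gap between the genotypes, and in Nlrc5 the lowest WT value of 1658 lies just above the highest Irf1-/- value of 1647.

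In the libraries labelled Irf1-/- the members called were lower by unequal amounts, and Erap1 and Tapbp by the most. At a Benjamini-Hochberg adjusted p below 0.05 in limma, 9 of the 10 had a lower normalized count in Irf1-/- than in WT cells and none a higher one, against 12.4% of the 11379 genes tested that were lower and 11.4% that were higher. In all 10 the highest Irf1-/- value lay below the lowest WT value, as for 20.9% of all genes in this direction and 19.7% in the other. The median log2 fold change was -0.40 over the 10 genes and 0.00 over all genes tested to 2 decimals. Single genes ranged from -1.94 for Erap1 to -0.15 for Nlrc5.

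The ER aminopeptidase gene Erap1 (ENSMUSG00000021583, chromosome 13 of GRCm38 from 74639568 to 74693201, + strand) had, with Tapbp, the largest decrease of the 10. The 95% intervals of the log2 changes, -2.08 to -1.79 for Erap1 and -1.99 to -1.68 for Tapbp, overlapped. Its normalized counts were 1514, 1538 and 1544 in WT cells and 423, 368 and 411 in Irf1-/- cells. The groups were far apart, the gap between them being 72.1% of the lowest WT value. The means were 1532 ± 16.0 (SD, n = 3) and 400.4 ± 29.1 (SD, n = 3), a change of log2 -1.94 (standard error, SE, 0.0671, limma adjusted p = 4.49e-08). Of all genes tested, 0.439% had a larger decrease. Exons of Cast, which runs the other way, overlap 11.5% of the exon length of Erap1, and Cast itself had 862 ± 40.1 (SD, n = 3) and 819 ± 66.9 (SD, n = 3) normalized counts (log2 fold change -0.08, adjusted p = 0.491).

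Tapbp and Tapbpl encode the peptide editors. Tapbp (ENSMUSG00000024308, chromosome 17 from 33915899 to 33929292, + strand) had 2045, 2154 and 2018 normalized counts in WT cells and 531, 628 and 585 in Irf1-/- cells. It fell by 71.9%, with a change of log2 -1.83 (SE 0.0693, limma adjusted p = 7.97e-08), and 0.492% of all genes had a larger decrease. Zbtb22, which starts on the same strand 5 bases from the outermost GENCODE start of Tapbp, and so not at the promoter shown, had 263 ± 8.58 (SD, n = 3) and 262 ± 7.59 (SD, n = 3) normalized counts, with a change of log2 -0.01 (adjusted p = 0.956).

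Tapbpl (ENSMUSG00000038213, chromosome 6 from 125223933 to 125231860, - strand) had 648, 719 and 674 normalized counts in WT cells and 361, 343 and 340.0 in Irf1-/- cells. It changed by log2 -0.97 (SE 0.0701, limma adjusted p = 1.11e-05), a fall to 51.1% of the WT mean. The log2 ratio of Tapbp to Tapbpl within a library was 1.61 ± 0.0442 in WT cells and 0.74 ± 0.162 in the Irf1-/- libraries (SD, n = 3 each), and was lower in every Irf1-/- library than in any WT library. The log2 ratio of Tapbpl to Erap1 was -1.17 ± 0.0669 in WT cells and -0.20 ± 0.0890 in the Irf1-/- libraries (SD, n = 3 each), a difference of 0.97. An exact two-sided permutation test gave p = 0.1 for each of 4 such ratios (adjusted p = 0.1), the smallest value that 3 libraries against 3 allow, so that this test cannot pass a threshold of 0.05 here.

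The transporter chains differed too. Tap2 (ENSMUSG00000024339, chromosome 17 from 34203527 to 34216321, + strand) had 1515, 1461 and 1543 normalized counts in WT cells and 884, 906 and 861 in Irf1-/- cells, a fall of log2 -0.77 (SE 0.0545, limma adjusted p = 9.25e-06). Tap1 (ENSMUSG00000037321, chromosome 17 from 34187553 to 34197225, + strand) had 4147, 4225 and 4107 in WT cells and 3477, 3355 and 3273 in Irf1-/- cells. Tap1 fell by 19.0%, with a change of log2 -0.30 (SE 0.0480, limma adjusted p = 0.00148), and was not called in the 4 libraries with Xist (log2 -0.29, limma adjusted p = 0.0583). The 95% interval was -0.89 to -0.65 for Tap2 and -0.41 to -0.20 for Tap1. The log2 ratio of Tap1 to Tap2 was higher in every Irf1-/- library than in any WT library, 1.93 ± 0.0437 (SD, n = 3) against 1.46 ± 0.0612 (SD, n = 3), with p = 0.1 in the exact permutation test.

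**Figure D2:**
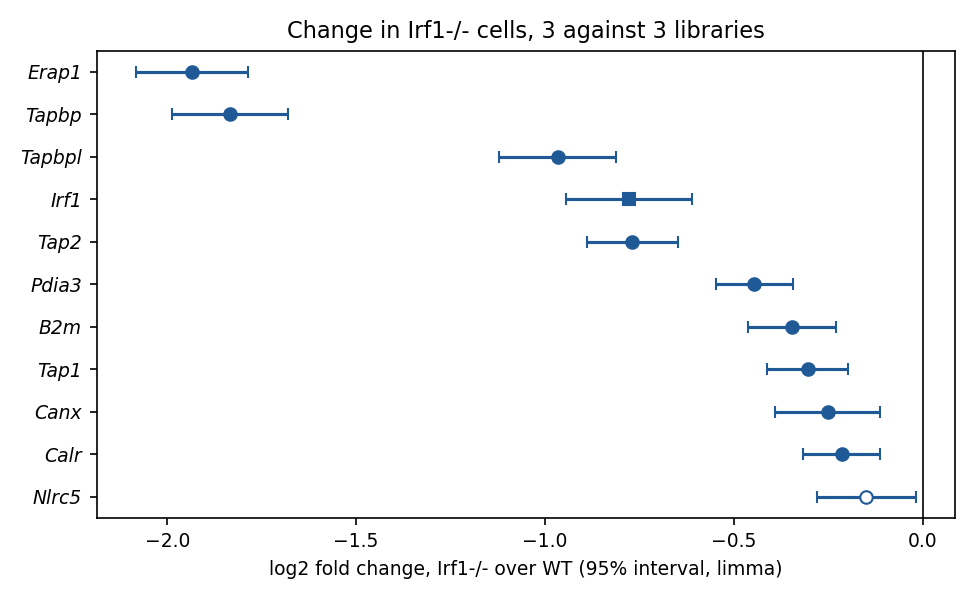
Log2 fold change of Irf1-/- over WT cells for the 10 genes (circles) and Irf1 (square), with 95% intervals from limma over 3 libraries a group; the open circle did not pass an adjusted p of 0.05. Erap1 at -1.94 and Tapbp at -1.83 stand apart, Tapbpl at -0.97 and Tap2 at -0.77 follow, and the other 6 lie from -0.45 to -0.15.

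The genes of the Tap region lie in the order Psmb9, Tap1, Psmb8 and Tap2 on chromosome 17, with Psmb8 and Psmb9 encoding subunits of the immunoproteasome. All 4 fell, Psmb8 by log2 0.84 (limma adjusted p = 1.48e-04) and Psmb9 by log2 0.50 (adjusted p = 1.00e-04). Psmb9, whose RefSeq start borders the stretch of sequence shown above for Tap1, had 1671, 1723 and 1766 normalized counts in WT cells and 1212, 1213 and 1210.4 in Irf1-/- cells. The log2 ratio of Tap1 to Psmb9 was 1.27 ± 0.0499 in WT cells and 1.47 ± 0.0431 in the Irf1-/- libraries (SD, n = 3 each), with exact permutation p = 0.1. Exons of these neighbours in GENCODE overlap by 212 bases, 3.87% of the exon length of Tap1, so that some reads could belong to either.

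**Figure D3:**
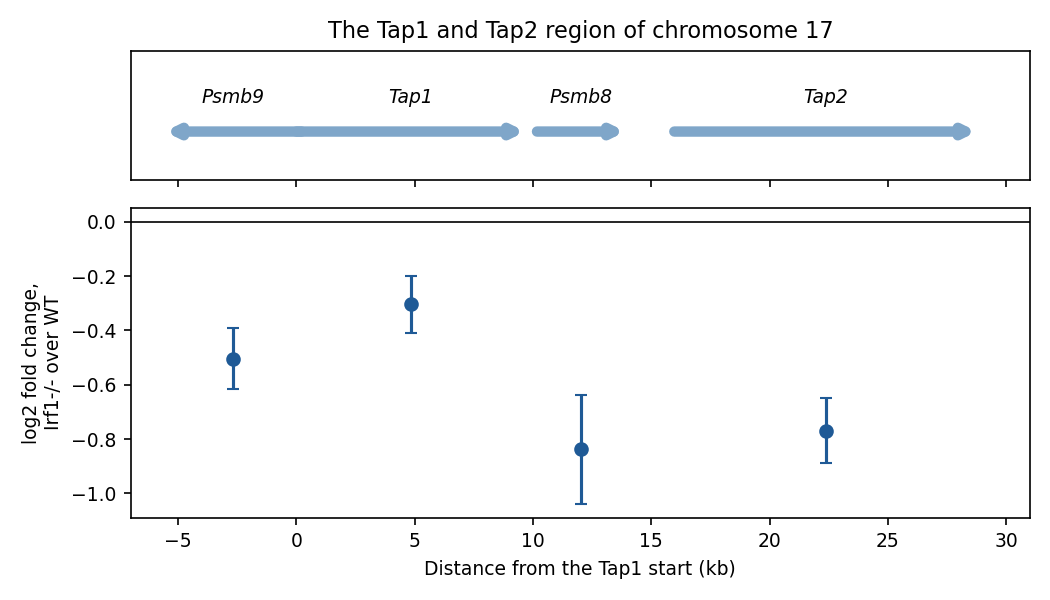
Top, genes of the Tap region by distance from the Tap1 start in kb, arrows giving the direction of transcription; bottom, log2 fold change of Irf1-/- over WT cells with 95% intervals from limma, 3 libraries a group. Tap1, at -0.30, has the smallest change of the 4 and Psmb8, at -0.84, the largest. The interval of Psmb8 overlaps that of Tap2, at -0.77, and the intervals of Tap1 and Psmb9 overlap at their ends.

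B2m, the light chain shared by class I molecules (ENSMUSG00000060802, chromosome 2 from 122147686 to 122153083, + strand), had 7514, 7252 and 8010 normalized counts in WT cells and 5815, 6104 and 5987 in Irf1-/- cells. It fell by 21.4%, with a change of log2 -0.35 (SE 0.0527, limma adjusted p = 0.00123). Among the 7 members whose promoters could be searched, only B2m and Erap1 had a match to the response element core. They lay at -0.35 and -1.94 on the log2 scale. Tap2, Tapbpl and Nlrc5 could not be searched.

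The lectins and the oxidoreductase serve many other ER proteins as well. Pdia3 (ENSMUSG00000027248, chromosome 2 from 121413775 to 121438687, + strand) had 4331, 4522 and 4461 normalized counts in WT cells and 3276, 3229 and 3271 in Irf1-/- cells, with a change of log2 -0.45 (SE 0.0464, limma adjusted p = 1.17e-04). Calr (ENSMUSG00000003814, chromosome 8 from 84841850 to 84846934, - strand) had 7767, 7613 and 7972 in WT and 6640, 6809 and 6679 in Irf1-/- cells, a change of log2 -0.21 (SE 0.0462, limma adjusted p = 0.00798). Calr was not called in the 4 libraries with Xist (log2 -0.25, limma adjusted p = 0.0729), nor in limma without the trend (adjusted p = 0.0528). The groups of each gene were apart, by 24.3% of the lowest WT value in Pdia3 and 10.6% in Calr.

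Canx (ENSMUSG00000020368, chromosome 11 from 50293961 to 50325673, - strand) had 7932, 8050 and 9144 normalized counts in WT cells and 7097, 6725 and 7259 in Irf1-/- cells, a change of log2 -0.25 (SE 0.0629, limma adjusted p = 0.0158). WT replicate 3 was the highest of the 6, and the gap between the groups was 8.48% of the lowest WT value. Without Irf1-/- replicate 2, the library with most myeloid transcripts, Canx did not pass the threshold (log2 fold change -0.22, limma adjusted p = 0.0704), nor did it in limma without the trend (adjusted p = 0.0834). In the 4 libraries with Xist the value was -0.38, and with Ddx3y as a covariate -0.37. Canx starts 3444341 bases from the start of Irf1 on the same chromosome, and whether the region around the targeted allele plays a part was not tested.

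Nlrc5, the transactivator of class I genes (ENSMUSG00000074151, chromosome 8 from 94434356 to 94527272, + strand), was the single member not called. Its normalized counts were 1725, 1836 and 1658 in WT cells and 1647, 1541 and 1517 in Irf1-/- cells. The groups were separated by 0.686% of the lowest WT value. The change was log2 -0.15 (SE 0.0593, 95% interval -0.28 to -0.02, limma adjusted p = 0.0945), so that a fall of up to log2 0.28 lies within the interval. Without WT replicate 3 it was -0.18 and called (adjusted p = 0.0489), in replicates 1 and 2 alone -0.16 (adjusted p = 0.0162), and in the 4 libraries with Xist -0.08 (adjusted p = 0.641).

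Levels were set side by side after dividing the mean normalized count by the annotated exon length in kb. This length joins all annotated exons of a gene and may differ from that of the transcripts present. The SDs below cover the libraries and not this length, so that the order of genes with close values is uncertain. In WT cells the order from high to low was B2m (8828 per kb), Calr (2703), Canx (1785), Pdia3 (1414), Tap1 (760), Tapbp (571), Tap2 (398), Tapbpl (289), Erap1 (210) and Nlrc5 (205). Erap1 and Nlrc5 did not differ beyond their spread, at 210 ± 2.19 and 205 ± 10.6 per kb (SD, n = 3). In Irf1-/- cells Tapbp, at 160 ± 13.4 per kb, lay below Tap2 at 234 ± 5.84 and beside Tapbpl at 148 ± 4.77 (SD, n = 3 each), the last pair being within the spread of Tapbp. Nlrc5 stood at 185 ± 8.11 per kb and Erap1, at 55.0 ± 3.99 per kb, was the lowest. The first 5 genes kept their order.

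The other steps of the class I pathway were followed with lists of genes. Of 18 class I heavy chain genes, 12 passed the filter on low values, and their median log2 fold change was -0.27, against -0.083 with no filter. By limma 6 of them were lower in Irf1-/- cells and 1 higher, beside 12.4% and 11.4% of all genes. In the 4 libraries with Xist 3 were lower and 1 higher, beside 3.54% of all genes lower, and without WT replicate 3 the higher ones were 2. The lower ones included the nonclassical genes H2-T24 (-0.83), H2-T23 (-0.70) and H2-T22 (-0.61) with H2-Q4 (-0.69). H2-K1, a classical heavy chain gene, went from 12545 ± 239 (SD, n = 3) to 10640 ± 348 (SD, n = 3) normalized counts, a change of log2 -0.24 (limma adjusted p = 0.00600). H2-D1, the other classical gene, had a change of log2 -0.16 that did not pass (adjusted p = 0.0535). H2-Q7 rose from 616 ± 15.5 (SD, n = 3) to 892 ± 61.0 (SD, n = 3), a change of log2 0.53 (limma adjusted p = 3.91e-04). Heavy chain genes are close paralogs, and reads shared between them could have been split or left out in the counting.

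All 10 genes of the immunoproteasome, the constitutive catalytic subunits it replaces and the proteasome activators were tested, with a median of -0.36. The catalytic subunit genes Psmb8, Psmb9 and Psmb10 and the activator genes Psme1 and Psme2 were lower, from -1.16 for Psmb10 to -0.50 for Psmb9, and none was higher, beside 12.4% and 11.4% of all genes. The numbers were the same in the 4 libraries with Xist (median -0.32) and without Irf1-/- replicate 2 (median -0.35). The constitutive subunit genes Psmb5, Psmb6 and Psmb7 had log2 fold changes of 0.03, 0.04 and -0.07, with 95% intervals within -0.20 to 0.22. Tap2 and Tapbpl lay within the range of the genes called in this list, Erap1 and Tapbp below it, and Tap1 and B2m above it.

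Of 12 other genes for cytosolic peptidases, ER entry and export of class I molecules, 11 were tested, 2 were lower and 1 higher, with a median of -0.07. These counts are near the 12.4% and 11.4% of all genes and are no result about the list. The median was -0.11 without WT replicate 1 but -0.04 without WT or Irf1-/- replicate 3, 0.00 to 2 decimals in replicates 1 and 2 and -0.14 with Ddx3y as a covariate. Lnpep, an aminopeptidase related to Erap1, went from 1079 ± 32.4 to 842 ± 99.1 normalized counts (SD, n = 3 each), a change of log2 -0.36 (limma adjusted p = 0.0103). Bcap31, an ER cargo receptor, was at -0.21 (adjusted p = 0.0263) and Sec61b, a subunit of the ER protein channel, at 0.24 (adjusted p = 0.0444). No call in this list was made in the 4 libraries with Xist, and with any library but Irf1-/- replicate 3 left out none was higher. Without any 1 of the WT libraries, or without Irf1-/- replicate 1, 1 gene was lower.

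Because Calr, Canx and Pdia3 also belong to general protein folding, 18 other ER chaperone and unfolded protein response genes were set beside them. All 18 were tested, 2 were lower, near the 12.4% of all genes, and 6 were higher, beside 11.4% of all genes. Their median log2 fold change was 0.03. It ranged from -0.04 to 0.01 with 1 library left out, and was -0.10 in replicate 3 alone. Hspa5, the main ER chaperone of the Hsp70 family, had a change of log2 -0.08 and Hsp90b1, its Hsp90 counterpart, one of -0.11, and neither passed the threshold. Among the genes called, Ddit3, a stress-induced transcription factor, went from 165 ± 60.6 to 331 ± 125 normalized counts (SD, n = 3 each). Ero1l, an ER oxidase, was at 0.59, Herpud1, a factor of ER-associated degradation, at 0.53, and Dnajc3, a co-chaperone, at -0.33. The balance of calls depended on the libraries and on the fit. In limma without the trend 1 was lower and 1 higher, beside 807 and 928 of all 11379 genes. With Ddx3y as a covariate 5 were lower and 1 higher, beside 1120 lower and 876 higher of all 11379 genes. The median was then -0.06, and in the 4 libraries with Xist it was -0.07. With 1 library left out 1 or 2 were lower and 1 to 6 higher, with 1 higher without WT replicate 1 or 2 and 3 without Irf1-/- replicate 1 or 2. With the covariate and in the libraries with Xist, Pdia3 was at -0.45 in both, Calr at -0.24 and -0.25, the latter not called, and Canx at -0.37 and -0.38.

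Of 11 genes for the factors that assemble with NLRC5 or CIITA on SXY promoter modules and the coactivators they recruit, Ciita was near 0 in all libraries and the other 10 were tested. Their median was -0.17, and 2 were lower, Creb1 (-0.27, limma adjusted p = 0.0270) and Nfya (-0.25, adjusted p = 0.0135), with none higher. In a list of this size these counts are close to the 12.4% and 11.4% of all genes and are not read as a result about it. Neither gene was called in the 4 libraries with Xist, where 0 genes of the list were lower. The number was also 0 without WT replicate 2, and 1 without WT replicate 1, Irf1-/- replicate 1 or Irf1-/- replicate 2.

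**Figure D4:**
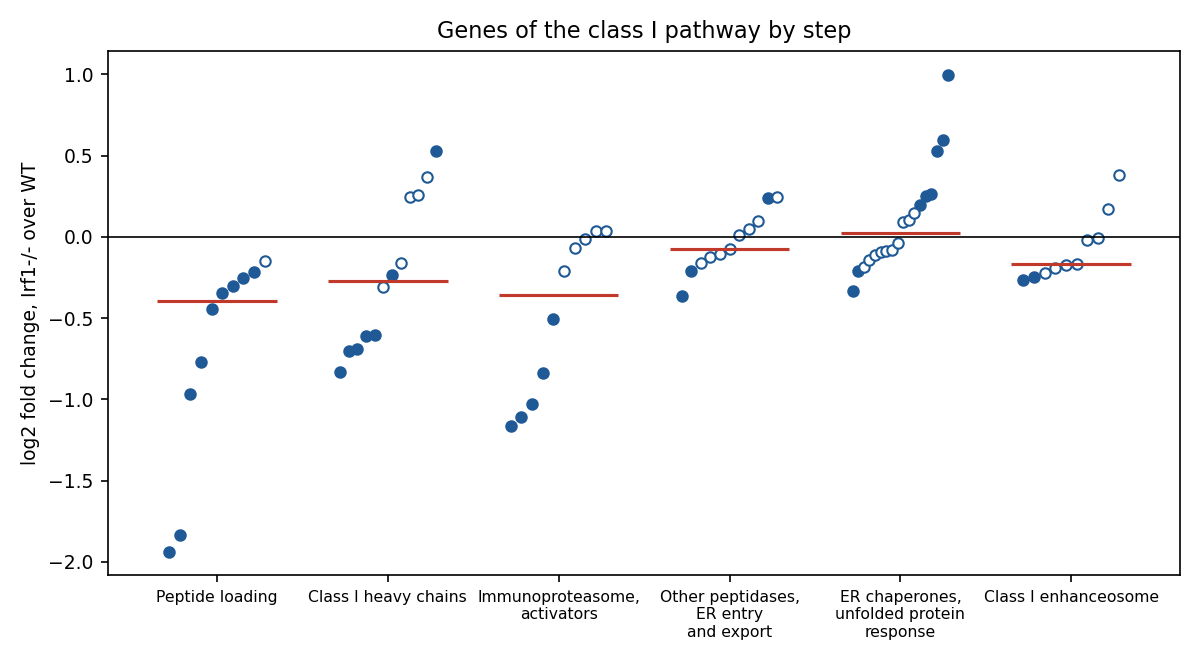
Log2 fold change of Irf1-/- over WT cells for every tested gene of 6 lists, 1 point a gene, filled where the adjusted p in limma was below 0.05, with red lines for list medians. The medians are -0.40 for peptide loading, -0.27 for heavy chains, -0.36 for the immunoproteasome and activators, -0.07 for other peptidases, ER entry and export, 0.03 for ER chaperones and -0.17 for the enhanceosome.

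The fold changes of the members were recomputed within subsets of the libraries, since the WT libraries differed in Ddx3y and replicate 3 was sequenced more deeply. In the 4 libraries with Xist, 1 WT against 3 Irf1-/-, 7 members were called lower, and Tap1 (-0.29, limma adjusted p = 0.0583), Calr (-0.25, adjusted p = 0.0729) and Nlrc5 were not. The single WT library was assumed to vary like the others, and 3.54% of all genes were lower in that fit. In replicates 1 and 2 alone all 10 were called, against 18.3% of all genes. There Ddx3y was high in both WT libraries and Xist in both Irf1-/- libraries, so that this difference and the genotype cannot be told apart. In the pair of larger libraries, which allows no test, the log2 fold change was -1.91 for Erap1, -1.78 for Tapbp, -0.99 for Tapbpl, -0.84 for Tap2 and -0.33 for Tap1. Erap1 and Tapbp changed places without Irf1-/- replicate 2, at -1.88 and -1.89.

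**Figure D5:**
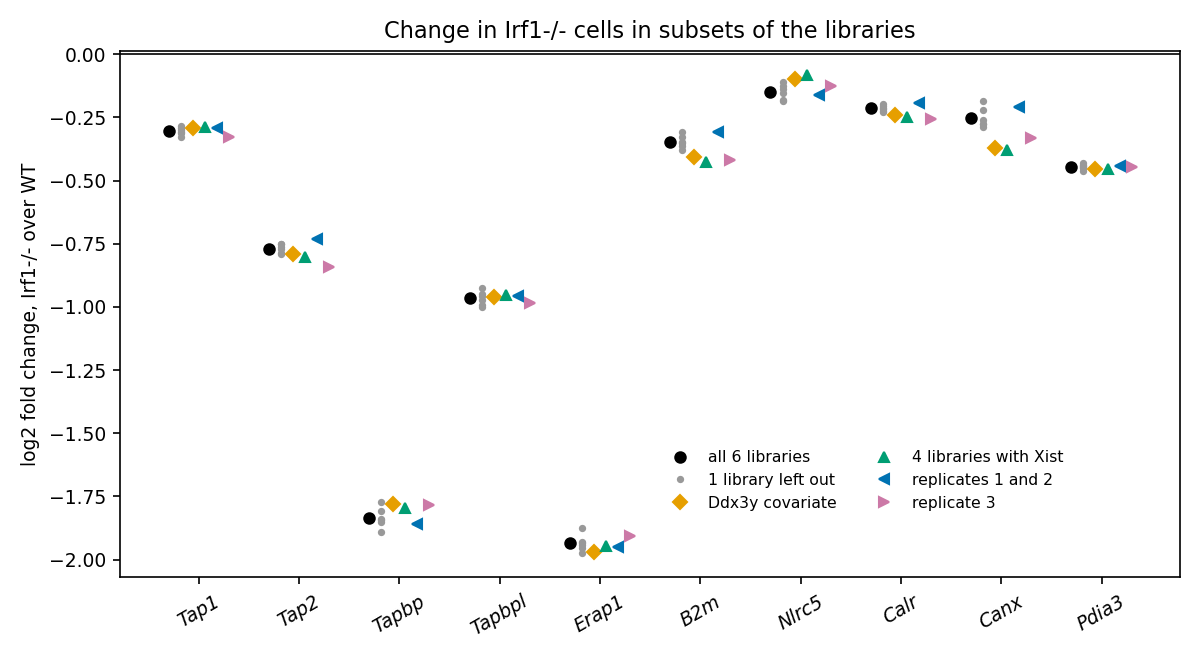
Log2 fold change of Irf1-/- over WT cells for the 10 genes in all 6 libraries and in subsets of them, with the fit that holds Ddx3y as a covariate. All values lie below 0, from -1.98 in Erap1 to -0.08 in Nlrc5. Canx, B2m, Tap2, Calr and, by little, Pdia3 are lower in the subsets that hold WT replicate 3 as the only WT library.

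Among 8224 other genes with a mean of at least 100, those nearest to Tap1 in their log2 values relative to the WT mean, over the 6 libraries, were Zfp638, Pphln1, Pop1, Aqr and Wdr33, with root mean square differences of 0.0247 to 0.0275. Aqr encodes a spliceosomal helicase and Wdr33 a subunit of the polyadenylation machinery. The genes nearest to Nlrc5 were Usp16, Imp4, Lsm8, Upf1 and Sptlc2, at 0.0208 to 0.0287. None of these genes is in any of the lists used here. The likeness is a description, largely of a small shared difference between the genotypes.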

How the data were processed

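Total RNA from T cell cultures was sequenced as single-end reads after poly(A) selection. Per the labels and the paper's methods, the authors aligned reads to GRCm38 with STAR 2.4.0b, counted them on Ensembl release 76 genes with featureCounts, and divided each count by a DESeq2 1.12.3 size factor. The deposited signal is this normalized count. Strand setting and treatment of multiply matching reads were not given in the sources used here. Whole reads were recovered for 100% of non-zero values (tolerance 0.001 reads), with 5639788 to 13348230 reads per library. A count of 3 reads equals 1.84 to 4.16 normalized counts.

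As the unit is not counts, genotypes were compared in R 4.3.3 with limma 3.58.1 (eBayes with trend) on log2(normalized count + 1) over 11379 genes with a mean of at least 10, adjusted by Benjamini-Hochberg at 0.05. Fold changes are on that scale. edgeR 4.0.16 and DESeq2 1.42.0 on recovered reads, other pseudocounts, filters and scalings, a replicate block and subsets of libraries were alternatives. The script was tested on simulated data. Symbols came from gene_names tables by Ensembl identifier (40254 matched), and positions and exon lengths from GENCODE M21 on GRCm38. Members, lists and alternatives were chosen with earlier results of these data known. Named genes are the members, Irf1, at most 4 called genes a list with the largest changes or those a sentence turns on, overlapping or adjacent genes, and the 5 nearest in pattern to Tap1 and Nlrc5. Of the list genes, Erap2 was not matched.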

Additional observations from a re-analysis of the deposited data

How the results depend on the processing

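Erap1, Tapbp, Tapbpl, Tap2, B2m and Pdia3 kept their direction and call in all 18 alternatives that allow a test, with log2 fold changes from -1.98 to -1.88 for Erap1 and -1.89 to -1.77 for Tapbp. Of the 10 members, 8 to 10 were called lower with 1 library left out, 7 without the trend (Calr, Canx and Nlrc5 not called) and 7 in the libraries with Xist, and no setting called any higher. Their median was -0.41 to -0.38 with 1 library left out, -0.43 with Ddx3y as a covariate, -0.44 in the libraries with Xist, -0.38 in replicates 1 and 2 and -0.43 in replicate 3. The 4 log2 ratios between genes kept their sign: with 1 library left out they ranged from 0.44 to 0.50 for Tap1 to Tap2, -0.94 to -0.78 for Tapbp to Tapbpl, 0.17 to 0.22 for Tap1 to Psmb9 and 0.92 to 1.01 for Tapbpl to Erap1.

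Over all genes the number called lower was 807 without the trend and 2116 with the replicate block, against 1406, and 403 were lower and 407 higher in the libraries with Xist. With 1 library left out it was 824 (without WT replicate 1 or 2) to 1471 lower and 805 (without WT replicate 2) to 1380 higher, and without Irf1-/- replicate 2 it was 895 and 810. The median was 0.016 without the filter, -0.015 at a mean of at least 50, and -0.0055 to -0.0014 with 1 library left out.

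Calls in the heavy chain list were 2 higher with the block and in replicates 1 and 2, and 3 lower in the libraries with Xist. The peptidase and export list had 0 higher genes without the filter, without the trend, in edgeR, in DESeq2, with Ddx3y and in the libraries with Xist, and 0 lower without the trend and with Xist, 1 in DESeq2 and 4 in replicates 1 and 2. The ER chaperone list had 1 lower and 1 higher without the trend and with Xist, and 5 and 1 with Ddx3y. The enhanceosome list had 1 lower gene without the trend and with Ddx3y, 5 with the block and 0 with Xist. With 1 library left out the ranges, lower and then higher, were 6 to 7 and 1 to 2 for heavy chains, 1 to 2 and 0 to 1 for peptidases, 1 to 2 and 1 to 6 for ER chaperones, and 0 to 3 and 0 for the enhanceosome. The cause was not tested.

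The replicate numbers of the labels are not stated to mark shared litters or days. Deviations from the group means correlated across genes at 0.09, 0.27 and 0.32 for same-numbered pairs 1, 2 and 3, each library most with its own number, a hint from the data and not the design. With the block Nlrc5 was called (log2 fold change -0.15, adjusted p = 0.0284), making 10 members.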

Other observations

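A long noncoding RNA that starts 747 bases from the start of Nlrc5 and runs the other way, 9330175E14Rik, had 163, 149 and 173 normalized counts in WT cells and 103, 110 and 129 in Irf1-/- cells. The change was log2 -0.51 (standard error 0.123, limma adjusted p = 0.0133), against -0.15 for Nlrc5. Their exons overlap by 78 bases, and the library kit is not stated to mark strand, so reads there could belong to either gene. It was picked as a neighbour of a member, and whether the difference between these genes exceeds their spread was not tested.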
